A study of Mus musculus with 2 samples.

Results

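The core circadian clock genes of mouse adipose tissue are described here as 10 genes, chosen by name and matched to the gene and transcript tables by gene identifier. They are Arntl, Clock and Npas2, the activators, and Per1, Per2, Per3, Cry1, Cry2, Nr1d1 and Nr1d2, the repressors. All 10 were found among the 43346 mouse genes of the tables. Polyadenylated RNA was sequenced from adult male C57BL/6J adipose tissue, aged 10 weeks, in 2 technical libraries of 1 biosample that form 1 group. The labels name no allele and no agent, and do not say whether animals were pooled, so no condition is compared. Library 2 was made in 2015, after the publication that used library 1. The sources used here do not give the fat depot or the time of day at which the tissue was taken.

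The molecular clock is a feedback loop of transcription. ARNTL (also called BMAL1) pairs with CLOCK or with its relative NPAS2, and the pair binds E-box sequences and switches on the Per, Cry and Nr1d genes. PER and CRY proteins return to the nucleus and block the pair, while NR1D1 and NR1D2 (REV-ERB alpha and beta) occupy ROR elements and repress Arntl. In tissues with a running clock the activator and repressor transcripts peak at different times of day, so that their ratio changes over the day. In fat the loop is known to time lipid storage and release.

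Depth was 19954869 expected counts in library 1 and 19256807 in library 2, of which the 10 genes held 6423 and 8363. Mitochondrial genes held 19.4% and 4.11% of the counts. Levels are given in TPM, a length-scaled share of all transcripts. All 12 adipocyte markers reached 1 TPM in both libraries, with medians of 83.3 and 738 TPM and sums of 7816 and 17054 TPM. The 12 epididymis markers also reached 1 TPM in both, with medians of 2543 and 3003 TPM and sums of 47902 and 55017 TPM, so the tissue held transcripts of the male tract beside those of fat. Of 12 testis germ cell markers, 11 reached 1 TPM in both libraries, Tssk6 was listed at 0 in library 1, and the sums were 317 and 1514 TPM. The part of these other cell types in the clock genes' levels was not tested, and in bulk tissue fewer cells of a type and less RNA per cell cannot be told apart.

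Several short DNA elements occur in promoters of clock genes, and a window for each element searched is shown here. RefSeq start sites on GRCm38.p6, the assembly also called mm10, were matched for 9 of the 10 genes, with 13 windows. Per2 had no entry. Each sequence runs 5′ to 3′ on the gene's strand and covers the 250 bases before a start site, and capitals mark the element. Per1 is shown at both of its matched RefSeq start sites, chr11:69098699-69098948 and chr11:69099902-69100151 on the plus strand. They are called upstream and downstream here, although the annotated transcript Per1-202 begins farther upstream, at chr11:69095217. Cry1 is at chr10:85185055-85185304 and Per3 at chr4:151044666-151044915, both on the minus strand. For Arntl, 30 bases at chr7:113207530-113207559 on the plus strand are shown.
Per1, upstream start: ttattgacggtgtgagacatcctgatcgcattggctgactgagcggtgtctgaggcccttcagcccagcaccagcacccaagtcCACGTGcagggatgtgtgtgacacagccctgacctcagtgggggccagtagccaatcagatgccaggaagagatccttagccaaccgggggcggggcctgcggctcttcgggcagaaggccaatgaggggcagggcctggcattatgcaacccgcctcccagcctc
Per1, downstream start: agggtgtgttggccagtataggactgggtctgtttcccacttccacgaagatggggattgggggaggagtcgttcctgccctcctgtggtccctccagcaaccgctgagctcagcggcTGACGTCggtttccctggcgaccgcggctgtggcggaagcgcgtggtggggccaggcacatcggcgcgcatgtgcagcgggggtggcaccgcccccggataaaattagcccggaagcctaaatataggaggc
Cry1: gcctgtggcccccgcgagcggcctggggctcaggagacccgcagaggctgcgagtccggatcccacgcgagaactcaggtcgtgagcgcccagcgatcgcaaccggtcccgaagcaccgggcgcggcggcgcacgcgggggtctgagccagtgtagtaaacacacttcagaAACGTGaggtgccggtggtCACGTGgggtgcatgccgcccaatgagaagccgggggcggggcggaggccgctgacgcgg
Per3: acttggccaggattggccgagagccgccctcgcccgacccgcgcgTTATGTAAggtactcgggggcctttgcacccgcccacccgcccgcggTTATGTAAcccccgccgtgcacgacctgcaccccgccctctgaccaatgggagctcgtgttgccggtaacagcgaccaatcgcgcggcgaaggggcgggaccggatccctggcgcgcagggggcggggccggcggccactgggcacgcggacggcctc
Arntl: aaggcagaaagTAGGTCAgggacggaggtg

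The E-box, CACGTG, lay 166 bases before the upstream start of Per1 and 60 bases before the start of Cry1, counted to the first base of the match. On either strand it was in 7.15% of 32851 promoter windows of 300 bases (250 before to 50 after a start). The related E-prime box, CACGTT, was in 4.68% of all windows and lay 79 bases before the start of Cry1, 166 before that of Cry2 and 28 before that of Nr1d1. The core of the cAMP response element, TGACGTC (3.21% of windows), lay 132 bases before the downstream start of Per1. The D-box, TTATGTAA (0.938% of windows), lay 205 and 158 bases before the start of Per3. The ROR element, TAGGTCA (2.61% of windows), was 30 bases after the second start of Arntl. Both strands were searched, the motifs do not overlap one another in these windows, and a match shows only that the letters are there.

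Among the activators, Clock (chr5:76209868-76304792, minus strand), the main partner of ARNTL, had 17.59 TPM in library 1 and 13.13 TPM in library 2. Arntl (chr7:113207465-113314126, plus strand), the obligate partner, had 8.50 and 12.96 TPM. Npas2 (chr1:39193731-39363236, plus strand), which can stand in for CLOCK, was the lowest activator in both libraries at 1.57 and 3.88 TPM. Clock stood 11.2 times above Npas2 in library 1 and 3.38 times above it in library 2. Clock was 2.07 times Arntl in library 1, whereas in library 2 the ratio was 1.01 and the 95% exact Poisson intervals of both levels overlapped.

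Of the period genes, which encode the rate-limiting repressors, Per1 (chr11:69095217-69109960, plus strand) had 1.10 TPM in library 1, the lowest of the 10 genes, and 26.71 TPM in library 2, the second highest. Per2 (chr1:91415982-91459324, minus strand) had 2.09 and 5.48 TPM. Per3 (chr4:151003652-151044665, minus strand), which is dispensable for the core rhythm, had 6.78 and 16.06 TPM. Thus Per3 led the family in library 1 and Per1 led it in library 2. The ratio of Per1 to Per2 went from 0.526 to 4.87, while that of Per3 to Per2 was 3.24 and 2.93 with overlapping intervals. Every period gene had a higher TPM in library 2.

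The cryptochromes bind the activator pair and block it directly. Cry1 (chr10:85131700-85185064, minus strand) had 4.36 TPM in library 1 and 6.94 TPM in library 2. Cry2 (chr2:92403646-92434043, minus strand) had 4.80 and 20.69 TPM. The pair could not be ranked within counting error in library 1, where their intervals overlapped, and Cry2 was 2.98 times Cry1 in library 2.

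The REV-ERB genes encode haem-binding nuclear receptors without an activation domain. Nr1d2 (chr14:18204054-18239127, minus strand) was the highest of the 10 genes in library 1 at 30.23 TPM and had 21.88 TPM in library 2. Nr1d1 (chr11:98767932-98775333, minus strand) had 2.79 TPM in library 1 and was the highest of the 10 in library 2 at 30.32 TPM. The ratio of Nr1d1 to Nr1d2 was therefore 0.0923 in library 1 and 1.39 in library 2. Nr1d1 shares 263 exon bases, 8.55% of its exon length, with Thra, a thyroid hormone receptor gene on the opposite strand. Thra had 6.96 and 59.53 TPM, and the sources used here do not say whether counting used strand, so the level of Nr1d1 is uncertain by what the overlap contributes.

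**Figure D1:**
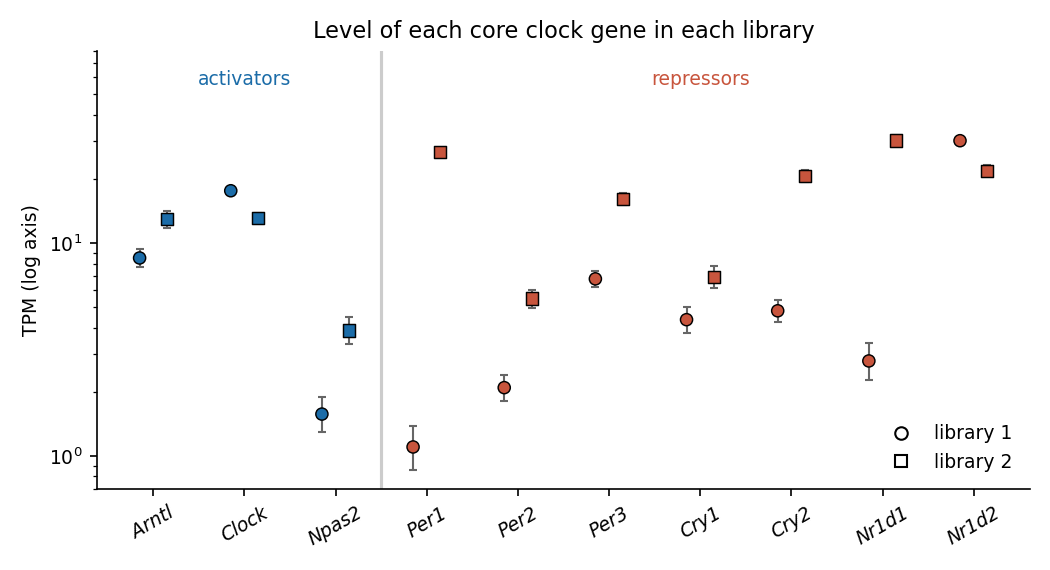
Level of each core clock gene in TPM on a log axis, in library 1 and library 2, with bars for 95% exact Poisson intervals that cover counting error only. Nr1d1 and Per1 lie farthest apart between libraries (2.79 against 30.32 TPM and 1.10 against 26.71 TPM), while Clock and Nr1d2 are the 2 genes with the lower value in library 2.

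The order of the genes was not shared by the libraries. From high to low, library 1 gave Nr1d2, Clock, Arntl, Per3, Cry2, Cry1, Nr1d1, Per2, Npas2 and Per1. Neighbours whose intervals overlapped were Cry2 and Cry1, Nr1d1 and Per2, Per2 and Npas2, and Npas2 and Per1. Library 2 gave Nr1d1, Per1, Nr1d2, Cry2, Per3, Clock, Arntl, Cry1, Per2 and Npas2, with overlap between Nr1d2 and Cry2 and between Clock and Arntl. Across the 10 genes Spearman's rho between the libraries' TPM was 0.127, and Pearson's r on the log2 scale was 0.251. These are descriptions over genes, which are not independent replicates.

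Averaged over both technical libraries (SD, n = 2), Nr1d2 was at 26.1 ± 5.90 TPM, Nr1d1 at 16.6 ± 19.5, Clock at 15.4 ± 3.15, Per1 at 13.9 ± 18.1 and Cry2 at 12.7 ± 11.2. Per3 was at 11.4 ± 6.56 TPM, Arntl at 10.7 ± 3.15, Cry1 at 5.65 ± 1.82, Per2 at 3.79 ± 2.40 and Npas2 at 2.73 ± 1.63. Of all neighbours in this order, only Arntl and Cry1 differed by more than the larger SD of the pair, by 5.08 TPM. For Per1 and Nr1d1 the SD was larger than the mean.

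The libraries were then compared gene by gene on counts scaled with TMM factors, which unlike TPM do not fix the total. The log2 ratio of library 2 to library 1 was tested with a two-sided exact binomial test adjusted over 18275 genes. A call needed an adjusted p below 0.05 and a 2-fold difference. The test compares these 2 libraries, covers counting error only and has no replicate check. All 10 genes passed the count minimum of 10. Higher in library 2 were 3 of them, against 30.2% of all tested genes, and lower were 2, against 18.6%, so the shares lay near the background. The median log2 ratio was 0.36, against 0.02 over all tested genes.

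Per1 had 71 counts in library 1 and 1523 in library 2, a log2 ratio of 4.03 (95% exact interval 3.69 to 4.40, adjusted p = 7.64e-276 by the exact binomial test). Nr1d1 had 98 and 963 counts and a log2 ratio of 2.90 (2.61 to 3.22, exact adjusted p = 3.54e-132). Cry2 had 286 and 1022 counts and a log2 ratio of 1.45 (1.26 to 1.64, exact adjusted p = 7.43e-59). These are 3 repressors from 3 families.

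In the other direction, Clock had 2194 counts in library 1 and 1282 in library 2, with a log2 ratio of -1.16 (-1.26 to -1.06, exact adjusted p = 2.15e-120). Nr1d2 had 2279 and 1270 counts and a log2 ratio of -1.23 (-1.33 to -1.13, exact adjusted p = 5.38e-137). On total counts neither reached 2-fold, and the values were -0.72 and -0.79. An activator and a repressor thus shared this direction.

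The other 5 genes were not called. Per2 (202 and 414 counts) had a log2 ratio of 0.65, Per3 (578 and 970 counts) 0.36 and Npas2 (109 and 184 counts) 0.37, each with an exact adjusted p below the threshold but under 2-fold. Arntl (395 and 472 counts) had -0.13 with an interval of -0.33 to 0.07, and Cry1 (211 and 263 counts) -0.07 with an interval of -0.34 to 0.20. On total counts the signs of Arntl and Cry1 turned, to 0.31 and 0.37.

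The log2 ratio moved with the GC content of the transcripts. Clock (42.1% GC) and Nr1d2 (43.6%) had the lowest GC of the 10 genes, and Per1 (58.9%) and Nr1d1 (56.6%) the highest. Over the 10 genes Pearson's r was 0.884 and Spearman's rho 0.976, and over 23 other clock genes they were 0.874 and 0.895, as descriptions with no test. A rise with GC content was also seen across all tested genes, from a median log2 ratio of -1.56 in the lowest bin to 4.24 in the highest. No slope was computed. In bins of 455 or 456 genes of like GC content, the median log2 ratio was 3.40 around Per1, 2.43 around Nr1d1, 1.31 around Cry2, -1.01 around Nr1d2 and -1.17 around Clock. Of the 10 genes, 7 lay between the 25th and 75th percentile of their bin, 3 (Npas2, Per2 and Cry1) below it and 0 above it.

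**Figure D2:**
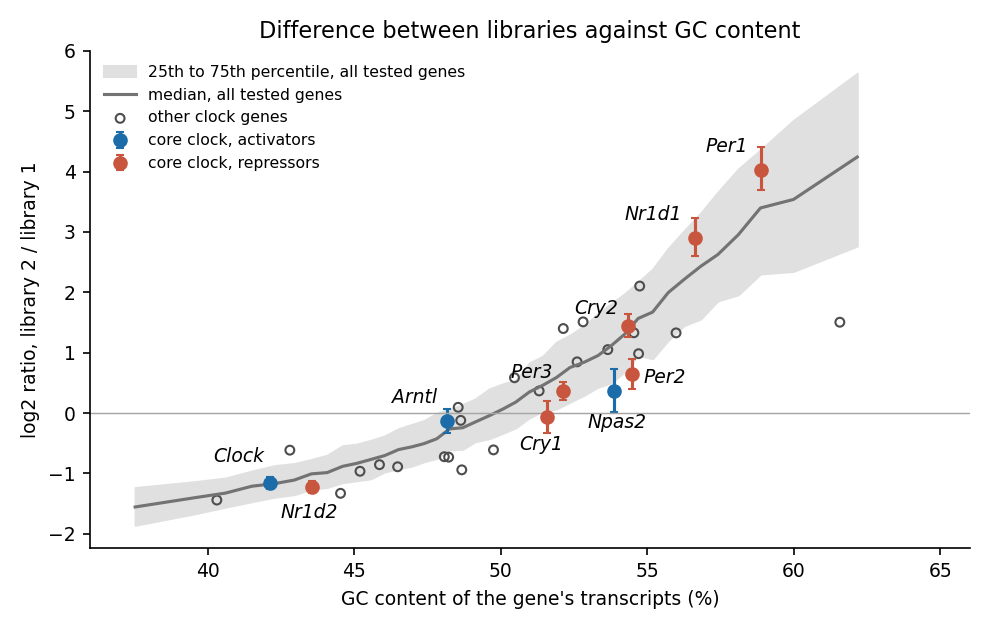
The log2 ratio of library 2 to library 1 against the GC content of the gene's transcripts in percent, for core activators, core repressors and other clock genes, with bars for 95% exact intervals. The line and band are the median and the 25th to 75th percentile of all tested genes, and 7 of the 10 core genes lie within the band.

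With each bin's median subtracted, 0 of the 10 genes were called higher and 0 lower by the exact binomial test, against 9.28% and 8.06% of 18210 genes with a GC value. Without the 2-fold minimum, 2 had an adjusted p below 0.05 in the higher direction and 5 in the lower. The share of all genes at that threshold is not given here, so these counts cannot be called particular to the clock genes. Per1 was then at 0.63, Nr1d1 at 0.47, Cry2 at 0.14, Arntl at 0.13 and Clock at 0.01. Nr1d2 was at -0.22, Per3 at -0.23, Cry1 at -0.53, Npas2 at -0.75 and Per2 at -0.92. The span over the 10 genes went from 5.26 to 1.55 on the log2 scale. This removal of the trend was chosen after the data were seen, and the part of GC content in the differences was not tested.

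GC content can differ where close relatives encode nearly the same amino acids. Stretches of 60 codons of Cry1 and Cry2 are shown because the ratio of this pair differed between libraries. For each pair of genes, the ungapped 60 codons with the most identical amino acids were picked. Their identity is therefore the maximum for the pair and does not describe the whole proteins. The stretches come from GENCODE M21 transcripts on mm10, run 5′ to 3′ on the coding strand, and capitals mark the bases that differ within the pair. The Cry1 stretch is codons 309 to 368 at chr10:85146377-85146556, and that of Cry2 is codons 327 to 386 at chr2:92413669-92413848, both on the minus strand.
Cry1: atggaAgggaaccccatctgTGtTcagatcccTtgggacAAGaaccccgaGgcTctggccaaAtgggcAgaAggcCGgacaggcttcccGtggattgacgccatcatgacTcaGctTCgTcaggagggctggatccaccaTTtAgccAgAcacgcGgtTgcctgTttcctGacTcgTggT
Cry2: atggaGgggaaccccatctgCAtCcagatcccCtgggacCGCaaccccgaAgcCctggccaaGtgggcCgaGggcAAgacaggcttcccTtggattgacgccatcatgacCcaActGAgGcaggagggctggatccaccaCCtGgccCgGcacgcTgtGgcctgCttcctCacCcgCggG
The stretches encode 57 identical amino acids of 60 and differ at 33 of 180 bases. GC content was 57.8% in Cry1 and 66.1% in Cry2, and at the third codon position it was 65% and 90%.

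The same was done for Clock, codons 253 to 312 spliced from chr5:76242828-76245231 on the minus strand, and Npas2, codons 228 to 287 spliced from chr1:39324523-39326148 on the plus strand, which encode alternative partners of ARNTL. Capitals again mark the bases that differ.
Clock: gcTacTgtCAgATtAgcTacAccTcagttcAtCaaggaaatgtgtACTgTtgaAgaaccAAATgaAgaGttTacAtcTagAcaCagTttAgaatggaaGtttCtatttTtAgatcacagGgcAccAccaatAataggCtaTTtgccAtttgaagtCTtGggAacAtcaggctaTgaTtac
Npas2: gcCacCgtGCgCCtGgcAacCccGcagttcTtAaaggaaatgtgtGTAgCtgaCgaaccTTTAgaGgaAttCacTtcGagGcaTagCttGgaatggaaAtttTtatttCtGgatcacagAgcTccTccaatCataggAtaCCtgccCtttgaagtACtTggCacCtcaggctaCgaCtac
Here 55 of 60 amino acids were identical and 49 of 180 bases differed. GC content was 38.3% in Clock and 48.3% in Npas2, and 30% and 51.7% at the third codon position. The stretches of Per1 and Per2, with 49 of 60 amino acids identical, had 58.9% and 57.8% GC. At the third codon position they had 58.3% and 65%, and the log2 ratios of these genes were 4.03 and 0.65. The stretches do not describe the whole genes, since over all transcripts GC content was 58.9% in Per1 and 54.5% in Per2. The median log2 ratio of genes of like GC content was 3.40 around Per1 and 1.57 around Per2. Whether such stretches bear on the difference between libraries was not tested.

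Outside the coding part, the 3′ UTR of Clock-201 spans 4522 bases at 39.3% GC and that of Nr1d2-201 spans 2631 bases at 35.4%, against 601 bases at 52.6% in Per1-201 and 288 bases at 50.3% in Nr1d1-201. The lowest GC content of a 3′ UTR was that of Cry1-201 (33.0%) and Arntl-201 (33.9%), neither of which was called between libraries. A link between the 3′ UTR and the libraries was not tested.

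Summed over each arm, the activators had 27.66 and 29.97 TPM in libraries 1 and 2. The repressors had 52.15 and 128.08 TPM. The ratio of activators to repressors was 0.530 in library 1 and 0.234 in library 2 (0.382 ± 0.210, SD, n = 2), a 2.27-fold difference. In TPM the repressor sum held most of this difference, but which arm differs depends on the scaling. In expected counts activators had 2698 in library 1 and 1938 in library 2, and repressors had 3725 and 6425. By counts, activators held 42.0% of the 10 genes' counts in library 1 (95% exact Clopper-Pearson interval 40.8 to 43.2%) and 23.2% in library 2 (22.3 to 24.1%). As sums of 7 genes against 3, repressors outweighed activators in both libraries, but by geometric means over the genes the ratio was 1.43 in library 1 and 0.559 in library 2, which turns the order in library 1.

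The makeup of the repressor arm also differed. Nr1d2 made up 58.0% of repressor TPM in library 1 and 17.1% in library 2, whereas Per1, Nr1d1 and Cry2 together made up 16.7% and 60.7%. The Per sum was 9.97 and 48.25 TPM, the Cry sum 9.16 and 27.63 TPM, and the Nr1d sum 33.02 and 52.20 TPM. Against Per and Cry genes alone, activators were 1.45 times the repressors in library 1 and 0.395 times in library 2, so the order of the arms turned. Against the Nr1d genes alone the ratios were 0.838 and 0.574. Within the activator arm, Clock held 63.6% of TPM in library 1 and 43.8% in library 2. The GC trend was also removed from library 2, with library 1 kept as the reference at 0.530. The ratio in library 2 then became 0.600 and the direction between libraries turned. Which library lies nearer the true ratio was not tested.

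**Figure D3:**
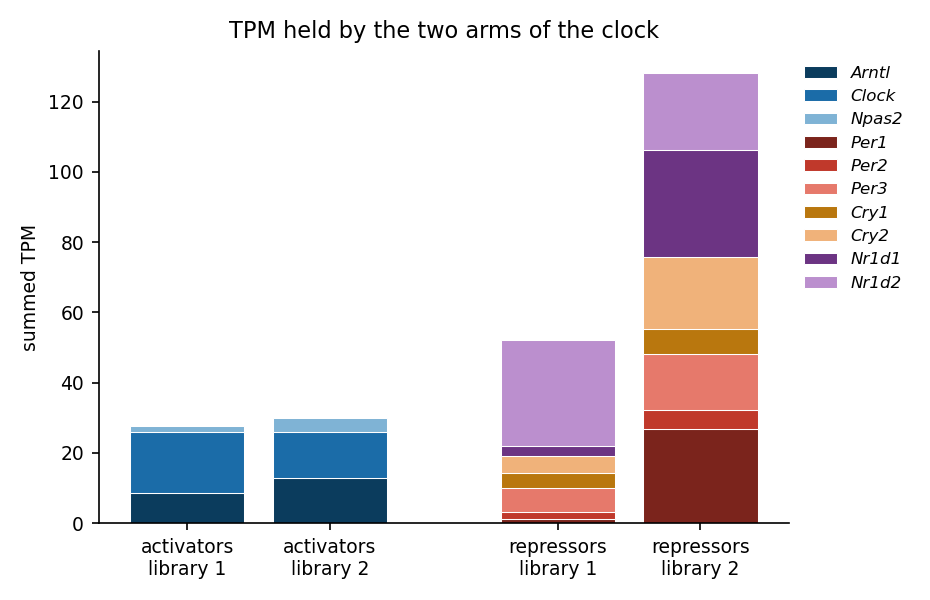
Summed TPM of the activator and repressor genes in each library, stacked by gene on an axis that starts at 0. The activator stacks are of like height (27.66 and 29.97 TPM), and the repressor stack of library 2 (128.08 TPM) is taller than that of library 1 (52.15 TPM) and is led by Nr1d1 and Per1 instead of Nr1d2.

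Each activator was also set against each repressor, in 21 pairs. The ratio was higher in library 1 in 16 pairs, and in 9 pairs the libraries put the opposite gene on top. Clock to Per1 moved most, from 16.0 to 0.492, a 32.5-fold difference. Arntl to Per1 went from 7.73 to 0.485 and Clock to Nr1d1 from 6.30 to 0.433. Arntl to Nr1d1, the ratio of a target to its direct repressor, went from 3.05 to 0.427.

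In 4 pairs the intervals of the libraries' ratios overlapped. Clock to Nr1d2 was 0.582 and 0.600, Arntl to Cry1 was 1.95 and 1.87, Npas2 to Per2 was 0.751 and 0.708, and Npas2 to Per3 was 0.232 and 0.242. The median difference over the 21 pairs was 2.83-fold. In the 6 pairs whose members differed by under 3 points of GC content the difference ran from 1.03-fold to 4.40-fold. In the 6 pairs over 10 points apart it ran from 3.41-fold to 32.5-fold. Both limits were chosen after the values were seen. Most of the pairs under 3 points held Npas2 and most of those over 10 points held Clock, so GC distance and gene cannot be told apart here.

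**Figure D4:**
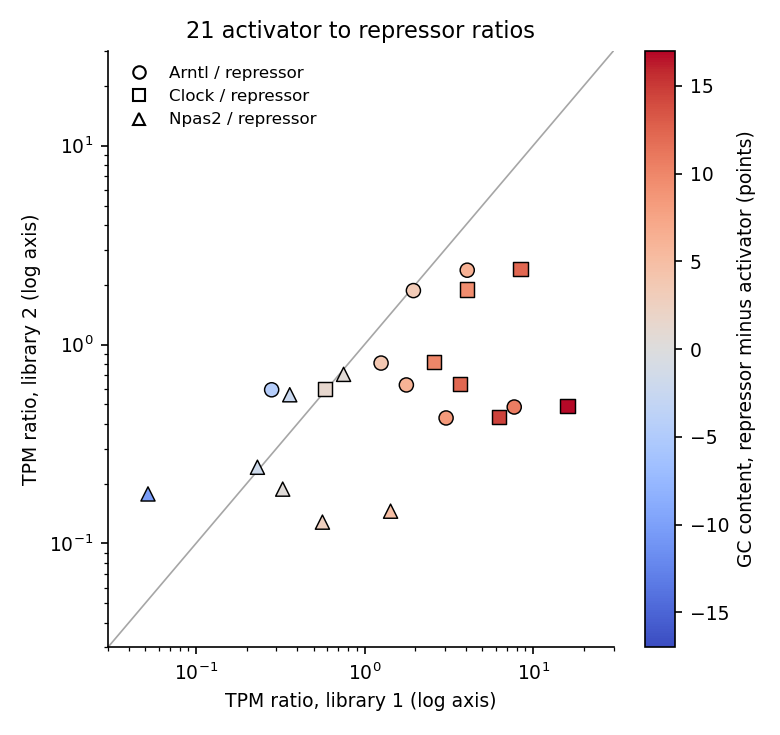
TPM ratio of each activator to each repressor in library 1 (horizontal log axis) and library 2 (vertical log axis), with 1 symbol per activator, colour for the GC content of the repressor minus that of the activator in points, and a line where both libraries are equal. Of the 21 ratios 16 lie below the line, with Clock to Per1 (16.0 and 0.492) farthest from it and Clock to Nr1d2 (0.582 and 0.600) close to it.

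Isoform percent, the share of a gene's TPM given to each transcript, was read for the 27 annotated transcripts of the 10 genes. Arntl, Clock and Cry1 have 1 transcript each in the annotation used, so their 100% carries no information. Per2-201, the full-length transcript, had 100% in both libraries, though the posterior mean estimates gave it 67.4% and 78.4%. Nr1d2-201 had 97.67% and 95.19%, Cry2-201 83.69% and 94.54%, and Npas2-201 100% and 86.42%. For Npas2-201 the posterior mean estimates gave 78.89% and 75.8%, and the 13.58% of Npas2-203 in library 2 rests on 2.12 counts. In these genes the same transcript led in both libraries.

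Per1 did not keep its leading transcript. Per1-201, which begins at the upstream start with the E-box (chr11:69098948), had 0% in library 1 and 81.62% in library 2, with 0 and 1309.33 expected counts. Per1-202, which begins farther upstream at chr11:69095217, had 58.35% and 15.94%, with 36.29 and 189.40 counts. Per1-206, which begins near the downstream start at chr11:69100158, had 41.65% and 0%, with 34.71 and 0 counts. The posterior mean estimates differed, with 10.85% for Per1-201, 37.71% for Per1-202, 11.45% for Per1-206 and 26.94% for Per1-204 in library 1, and 71.22% for Per1-201 and 4.73% for Per1-206 in library 2. All of library 1's split rests on 71 counts.

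Per3 was divided between its full-length transcript and a short one. Per3-201 had 61.09% in library 1 and 41.04% in library 2, with 411.67 and 512.86 counts. Per3-204, annotated as a processed transcript with no coding part, had 32.09% and 52.87%, with 129.31 and 395.31 counts. The leading transcript of Per3 thus also differed, and the TPM of Per3 counts noncoding transcripts with coding ones. Nr1d1-201 had 75.28% and 91.55%, and the noncoding Nr1d1-202 had 24.72% and 8.45%, from 7 and 20.47 counts. Transcript counts are model estimates, so no test was made on them.

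**Figure D5:**
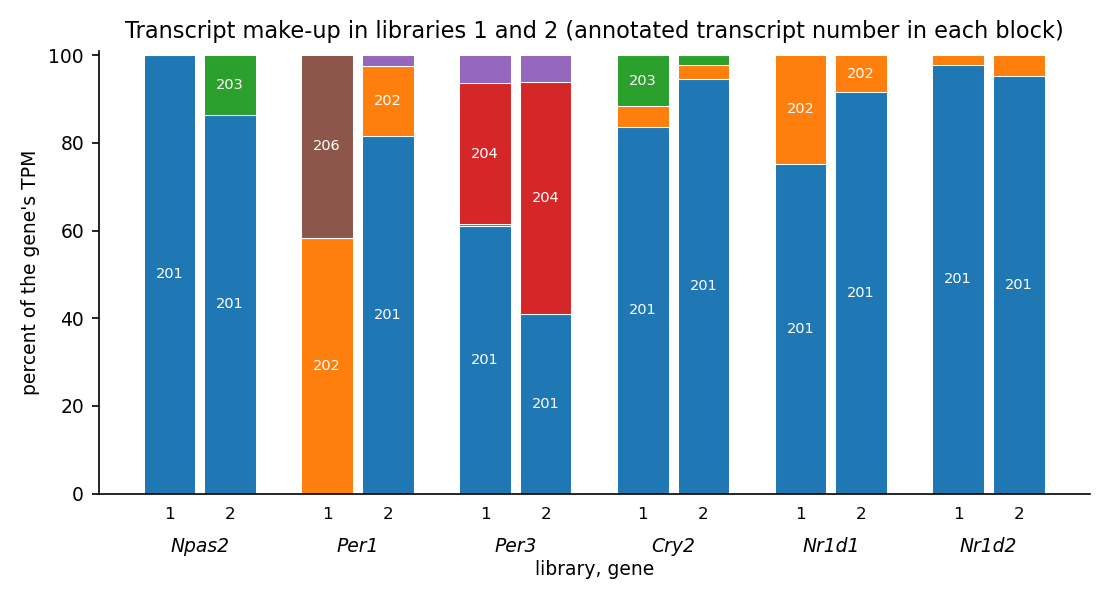
Percent of the gene's TPM held by each annotated transcript in libraries 1 and 2, for the 6 core clock genes with more than 1 transcript above 0, as bars stacked to 100% with the transcript's number in the larger blocks. Per1-201 goes from 0% to 81.62% and Per3-204 from 32.09% to 52.87%, while Nr1d2-201 stays at 97.67% and 95.19%.

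Around the core, 24 further clock genes in 6 lists were read in the same way, and 23 of them were tested. Of these, 7 were higher in library 2, against 30.2% of all tested genes, 2 were lower, against 18.6%, and 14 were not called. The median log2 ratio was 0.10, against 0.02 over all tested genes, and the higher share lay near the background. Rorb, with 7 and 2 counts, was not tested. With the GC trend removed 0 were higher and 1 lower, against 9.28% and 8.06% of all genes. That gene was Dbp, a D-box activator and E-box target, which went from a log2 ratio of 1.50 to -2.74 and is named because of its value. Its GC content of 61.6% falls in the highest bin, which spans 60.8 to 72.8% GC. The 25th to 75th percentile of the log2 ratio in that bin ran from 2.77 to 5.63, so the median subtracted there is a coarse one.

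The counts by list are read against the same 30.2% higher and 18.6% lower, from which lists this small cannot be told. Among the D-box factors 2 of 4 were higher and 0 lower. Tef, a D-box activator and the highest of the list, had 17.71 and 46.71 TPM and a log2 ratio of 0.85, which was not called. Of the further E-box repressors and partners 2 of 5 were higher and 0 lower, and Bhlhe41, a repressor that competes for E-boxes, had 67.08 and 29.16 TPM with a log2 ratio of -0.72, not called.

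Of the PER and CRY modifiers, kinases and ubiquitin ligase subunits that set protein stability, 2 of 7 were higher and 0 lower, near the 30.2% of all tested genes that were higher. Csnk1d, a casein kinase that phosphorylates PER proteins, had 43.43 and 76.31 TPM and a log2 ratio of 1.51. Neither of the REV-ERB corepressors was called, and Ncor1, the scaffold that brings a histone deacetylase to NR1D1, had 99.91 and 85.39 TPM. Of the 3 output genes 0 were higher and 1 was lower, where 18.6% of all tested genes were lower. That was Nampt, the rate-limiting enzyme of NAD salvage, with 51.54 and 31.70 TPM and a log2 ratio of -1.44.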

How the data were processed

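Polyadenylated RNA was measured in 2 technical libraries of 1 biosample. Expected counts, which need not be whole, were deposited for genes and transcripts together with TPM and FPKM, per the file headers. Isoform percent, a transcript's percent of its gene's TPM, was also deposited by the authors. The tables were made on mm10 with annotation M4, per the text beside the tables and the labels. No aligner, quantifier or strand setting was given in the sources used here. Entries without a mouse gene identifier (0 and 2 counts) were left out. Symbols, coordinates and GC content came from GENCODE M21 on the same assembly, in which 42462 of 43346 identifiers had a symbol.

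Expected counts were rounded, which changed none of the 10 genes, since all were whole within 0.005. Genes with at least 10 counts over both libraries were tested with an exact binomial test, using TMM effective library sizes from edgeR 4.0.16 and Benjamini-Hochberg adjustment. Log2 ratios used a pseudocount of 0.5. The procedure was tested on simulated data. The simulation drew Poisson counts without a GC trend, so it says nothing on calls that follow GC content. GC content was grouped in 40 bins. Intervals are 95% exact and cover counting error only, since PCR copies cannot be told from separate molecules. Alternatives used DESeq2 1.42.0 size factors, total counts, other filters, posterior means, edgeR's exact test with a dispersion of 0.01 and FPKM.

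The genes, lists and rules were chosen with earlier results of these data known. The rule named all 10 genes, the gene with the highest mean TPM of each wider list, leading transcripts, and other transcripts at 20% or more in a library. Some results that the rule covers are not reported here.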

Additional observations from a re-analysis of the deposited data

How the results depend on the processing

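No paired analysis was possible because both libraries belong to 1 group of 1 biosample. Relative to TMM, total counts shifted every log2 ratio by 0.44, total counts without mitochondrial genes by 0.19 and DESeq2 size factors by 0.01. On total counts 4 of the 10 genes were higher and 0 lower in library 2. The median log2 ratio was then 0.80, against 0.46 over all tested genes, with Arntl at 0.31 and Cry1 at 0.37. Without mitochondrial genes 1 was lower, and the median was 0.55, against 0.21 over all tested genes. Arntl was then at 0.058 and Cry1 at 0.12. With the GC trend removed, an alternative added after the data were seen, 0 were higher and 0 lower, the median was -0.11, and signs turned for Arntl (0.13), Clock (0.0067), Npas2 (-0.75), Per2 (-0.92) and Per3 (-0.23). With no minimum fold 6 were higher. For total counts, with or without mitochondrial genes, and for no minimum fold, the shares of all tested genes called are not given here. Filters, posterior mean counts, DESeq2 size factors and edgeR's exact test left the counts at 3 and 2. The activator to repressor ratio of library 1 was 1.45 with Per and Cry genes only and 1.43 with geometric means, and that of library 2 was 0.559 with geometric means and 0.600 with the GC trend removed. Library 1 over library 2 was 3.66 with Per and Cry genes only. With the GC trend removed from library 2 and library 1 left unchanged it was 0.884, which turns the direction. The cause was not tested. Of the log2 ratios under alternatives, 43 kept direction and call, 9 turned, 7 lost the call and 1 gained it. Leaving out a library gives each mean the other library's TPM, so Per1 ranged from 1.10 to 26.71 TPM and Nr1d1 from 2.79 to 30.32 TPM. Depth limits Per1, Nr1d1 and Npas2 most, with 71, 98 and 109 counts in library 1.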
